A study of Homo sapiens with 2 samples.

Results

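Transcripts of the DNA replication machinery were described among the genes that carried peaks in an RNA immunoprecipitation of ALKBH5 from HL-60 cells. The members were chosen by their listing, that is, as the genes that the authors' annotation of these peaks placed in the KEGG pathway DNA replication or in the GO process of the same name. They came to 103 symbols on 99 gene identifiers, of 5614 symbols in the GO and KEGG tables and 5851 in all tables. HL-60 is an established human promyelocytic leukaemia line, and ALKBH5 is a demethylase that acts on N6-methyladenosine in RNA. The IP library holds RNA recovered with an antibody against ALKBH5, and the input library holds RNA kept from the same kind of lysate, with 1 library in each group and no treatment named for either. Both libraries carry the genotype label ALKBH5, with no further detail. Titles and library names disagree on which library is the IP, and the library names were followed. The tables give no value per gene or per library, so a gene was either listed or not listed, no level, depth or fold can be given, and IP was not compared with input.

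DNA replication starts at origins. There the origin recognition complex and the licensing factors CDC6 and CDT1 load the MCM helicase, which CDC45 and the GINS complex then activate. Polymerase alpha and its primase start each strand, polymerases delta and epsilon extend it on the sliding clamp PCNA, and FEN1 and LIG1 trim and seal the Okazaki fragments of the lagging strand. Many genes of this machinery are known targets of E2F transcription factors, which switch them on as cells enter S phase. Of the myeloid markers chosen for the cell line, 4 of 9 were listed (MPO, PRTN3, CD33 and CEBPA). Of a second list, chosen as markers of other cell types, 4 of 7 were (EPCAM, KRT8, CD4 and PECAM1). CD4 and PECAM1 are not exclusive to other cell types. Among all protein-coding genes, 25.9% were listed. ELANE, AZU1, CTSG, CEBPE and SPI1 were not listed. Listing therefore did not separate the marker lists, and the presence of other cells was not tested.

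The promoters of 3 MCM helicase genes are shown because MCM2-7 is a complex listed in full, and because they carry the E2F-type letters described further on. Each window runs from 250 bases before the RefSeq start to 50 bases after it, in the direction of the gene, on GRCh38.p14. The windows are chr3:127598161-127598460 on the plus strand for MCM2, chr6:52284693-52284992 on the minus strand for MCM3 and chr2:135876394-135876693 on the minus strand for MCM6. Capitals mark each match on either strand to the motif TTCGCGC, the motif TTGGCGC, the motif TTCCCGC or the motif TTGCCGC, and matches that overlap run together.
MCM2: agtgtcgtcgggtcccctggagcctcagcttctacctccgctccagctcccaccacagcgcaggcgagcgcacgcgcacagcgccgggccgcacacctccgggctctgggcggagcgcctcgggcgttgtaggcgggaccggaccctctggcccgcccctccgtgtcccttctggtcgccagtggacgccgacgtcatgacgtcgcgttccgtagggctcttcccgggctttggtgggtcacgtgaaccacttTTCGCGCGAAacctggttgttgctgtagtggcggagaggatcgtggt
MCM3: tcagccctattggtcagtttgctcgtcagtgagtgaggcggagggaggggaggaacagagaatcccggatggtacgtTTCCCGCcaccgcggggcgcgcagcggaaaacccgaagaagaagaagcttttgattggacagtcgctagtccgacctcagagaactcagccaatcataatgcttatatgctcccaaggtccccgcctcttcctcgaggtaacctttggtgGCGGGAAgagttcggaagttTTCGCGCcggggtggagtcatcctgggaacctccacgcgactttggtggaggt
MCM6: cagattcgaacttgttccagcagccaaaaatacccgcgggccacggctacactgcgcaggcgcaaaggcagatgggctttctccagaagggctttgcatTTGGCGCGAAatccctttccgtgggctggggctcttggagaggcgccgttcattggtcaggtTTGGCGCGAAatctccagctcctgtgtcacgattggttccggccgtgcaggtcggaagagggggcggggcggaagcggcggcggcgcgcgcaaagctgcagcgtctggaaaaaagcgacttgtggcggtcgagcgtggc
In MCM2 the letters begin at base 4 of the transcribed part. In MCM3 the nearest of 3 matches begins 3 bases before the start, and in MCM6 the capitals form a pair of identical runs that begin 151 and 89 bases before it.

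The authors' deposited table gave the GO process 95 entries on 131 background genes, a rich factor of 2.18 and a corrected p-value of 0.00398. The authors' deposited table gave the KEGG pathway 27 entries on 36 background genes, a rich factor of 2.25 and a corrected p-value of 0.213. The entries carried 92 distinct gene identifiers for the GO process and 26 for the KEGG pathway. The rich factor is the authors' ratio of a term's share of listed entries to the overall share. These values chose the members, so they describe the list and support nothing about it. Both terms shared 19 symbols, and the remaining members were 8 named by KEGG alone and 76 named by GO alone. The 8 from KEGG alone were PCNA, LIG1, POLD3, PRIM1, PRIM2, RNASEH2C and the clone-named symbols CTC-453G23.5 and RP13-512J5.1. The sliding clamp, the replicative ligase and both primase subunits thus entered through KEGG, while the origin recognition and licensing genes entered through GO.

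Beyond the listed core, roles were compared with gene lists written from textbook knowledge, 92 genes in all. Of these, 51 were members, a further 14 were named only by other GO or KEGG terms, and 27 were not listed. The listed share was 70.7% (95% interval 60.2 to 79.7%), where 25.9% of 20052 protein-coding genes were listed. The listing of the members fixed most of that share, so nothing is read from the difference. What the lists add is which subunits were named and which were not.

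**Figure D1:**
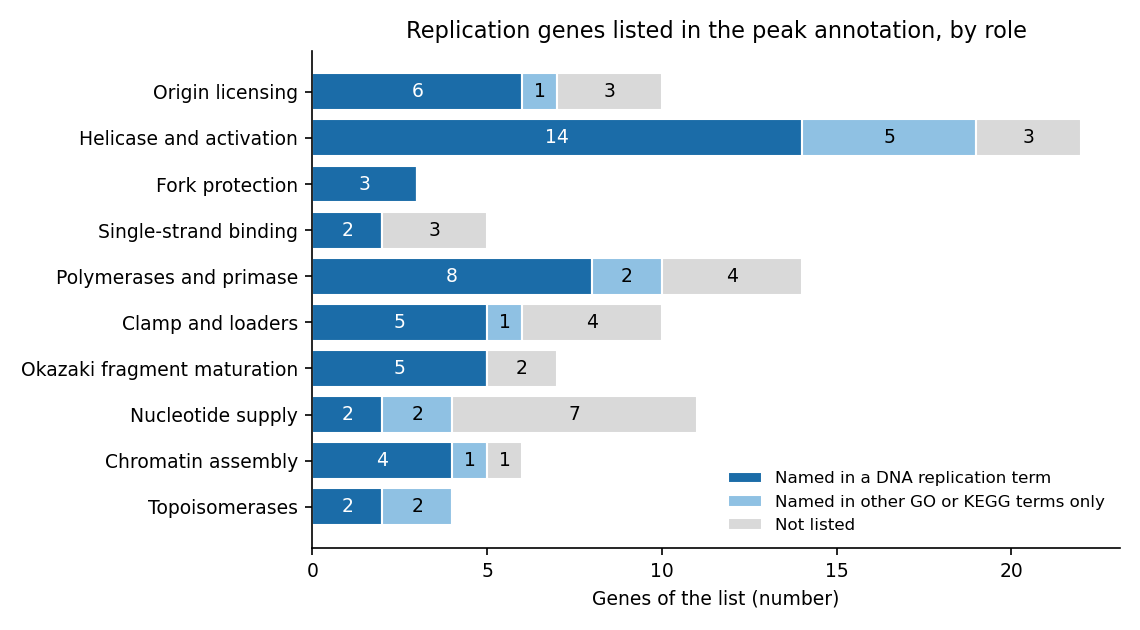
Number of genes of each role list (horizontal axis) that were named in a DNA replication term (dark blue), named only in other GO or KEGG terms (light blue) or not listed (grey). The helicase list has 14, 5 and 3 genes in these classes, and nucleotide supply has 2, 2 and 7.

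Origin licensing was represented by 6 members and 1 further listed gene of 10. ORC1, ORC2, ORC3 and ORC4, subunits of the complex that binds origins, were members, as were CDC6 and CDT1, which bring the helicase to it. GMNN, the inhibitor of CDT1, was named by 8 other terms. ORC5, ORC6 and MCMBP, a partner of MCM proteins, were not listed. All 6 licensing members were also named by nucleoplasm and by G1/S transition of mitotic cell cycle, and 5 of them by the KEGG pathway Cell cycle. Of all 5614 symbols of the GO and KEGG tables, these terms named 34.5%, 1.02% and 1.34%. CDT1 was the licensing member that the Cell cycle pathway did not name.

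The replicative helicase was listed in full. MCM2, MCM3, MCM4, MCM5, MCM6 and MCM7, the 6 subunits of the ring that unwinds DNA, stood in both DNA replication terms. All 6 were also named by Cell cycle, by G1/S transition and by the GO compartment MCM complex, which in addition named MCM8 and MCM9, a related helicase pair that acts in recombination. Of all symbols, MCM complex named 0.196%. Apart from the DNA replication terms, MCM2 was named by 21 terms, MCM7 by 18, MCM3 by 17, MCM5 by 14, and MCM4 and MCM6 by 12 each. Activators of the helicase were listed as well. CDC45, TOPBP1, TICRR, RECQL4, DONSON and MCM10 were members, and GINS1, GINS3, GINS4, MTBP and WDHD1 were named by other terms. GINS2 and both parts of the kinase that triggers origin firing, CDC7 and DBF4, were not listed. The 3 fork protection genes CLSPN, TIMELESS and TIPIN, which keep polymerase and helicase together and pass on checkpoint signals, were all members.

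The polymerase complexes differed in which subunits were listed. All 4 subunits of polymerase alpha-primase were members, namely POLA1, POLA2, PRIM1 and PRIM2. Polymerase delta had its catalytic subunit POLD1 and its accessory subunit POLD3 listed, and POLD2 and POLD4 not. Polymerase epsilon had its catalytic subunit POLE and the accessory POLE2 listed, and the histone-fold subunits POLE3 and POLE4 not. The mitochondrial polymerase genes POLG and POLG2 were named by 6 and 7 other terms. All 8 polymerase and primase members were named by nucleoplasm, and 6 by DNA replication initiation. These terms named 34.5% and 0.392% of all symbols.

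Clamp and clamp loader genes were listed in 6 of 10 cases. PCNA, which lies on chromosome 20 from 5114953 to 5126622, was a member, as were the loader subunits RFC2, RFC3 and RFC4 and the alternative loader subunit CHTF18. ATAD5, which unloads PCNA, was named by 5 other terms. RFC1 and RFC5 were not listed, nor were CHTF8 and DSCC1, partners of CHTF18. PCNA was named by 25 terms besides DNA replication, against 13 for each of the 3 RFC subunits and 8 for CHTF18. PCNA and the 3 RFC members were together in the KEGG pathway Nucleotide excision repair and in error-prone translesion synthesis. These terms named 0.517% and 0.285% of all symbols.

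Of the single-strand binding genes, RPA1 and RPA2 were members, and RPA3, RPA4 and the mitochondrial SSBP1 were not listed. RPA2 was named by 30 other terms and RPA1 by 26. In Okazaki fragment maturation the flap nuclease FEN1, the ligase LIG1, the nuclease-helicase DNA2, the catalytic RNase H2 subunit RNASEH2A and its partner RNASEH2C were members, and RNASEH2B was not listed. RNASEH1 was not listed by symbol, but its identifier was carried by the clone-named entry RP13-512J5.1. Counted by identifier, 26 of the 36 KEGG genes were therefore listed. The other 10 were POLD2, POLD4, POLE3, POLE4, RFC1, RFC5, RPA3, RPA4, RNASEH2B and SSBP1.

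Nucleotide supply had the fewest listed genes for its size, 4 of 11 (36.4%, 95% interval 10.9 to 69.2%). That interval includes the 25.9% of all protein-coding genes that were listed. Single-strand binding was close, with 2 of 5 genes listed (40%). RRM1 and RRM2, the subunits of the ribonucleotide reductase that makes deoxyribonucleotides, were members. TK1, which salvages thymidine, and SAMHD1, which degrades deoxyribonucleotides, were named by 4 and 8 other terms. RRM2B, TYMS, DUT, DCK, DTYMK and DCTPP1 were among the genes not listed. RRM2, on chromosome 2 from 10122568 to 10211010, had cytosol as its sole other term. The interval of this role overlaps those of the other roles, and the difference was not tested.

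Chromatin assembly and topoisomerases completed the lists. CHAF1A, CHAF1B and RBBP4, which form chromatin assembly factor 1, and the histone chaperone NASP were members. ASF1A, another histone chaperone, was named by other terms, and its paralogue ASF1B was not listed. TOP1 and TOP3A were members, and TOP2A and TOP2B were named by 19 and 12 other terms. Over the 12 complexes looked up subunit by subunit, 3 had every subunit listed, namely MCM2-7, polymerase alpha-primase and chromatin assembly factor 1. The DBF4-dependent kinase had none listed, and the remaining complexes had between 2 and 4 listed subunits. These complexes were chosen after the listing was known.

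Listed genes of the role lists had the longer median length. The 51 members had a median genomic length of 43.6 kb, introns included, with a range from 3.13 kb (RNASEH2C) to 425 kb (PRIM2). The 14 genes named by other terms had a median of 24.4 kb. The 27 unlisted genes had a median of 17.1 kb, from 1.56 kb (RPA4) to 82.1 kb (RPA3). The groups overlapped widely, and RFC1 at 78.9 kb and ORC5 at 81.7 kb were long genes that were not listed. Over all protein-coding genes the medians were 35.4 kb for the 5199 listed and 20.4 kb for the 14853 not listed, so the same direction held for genes in general. No test was made, and the part of length in the listing was not tested.

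**Figure D2:**
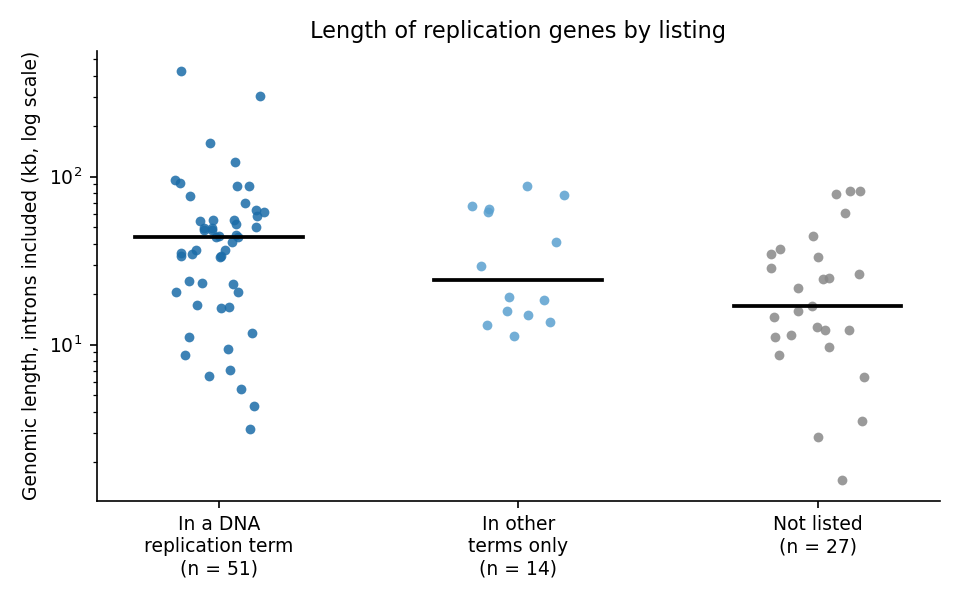
Genomic length with introns in kb on a log axis for the 92 role-list genes, by listing, with 1 point per gene and a bar at the median. The medians are 43.6, 24.4 and 17.1 kb from left to right, and the ranges overlap.

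A further 52 members lay outside the role lists, 5 of them clone-named and most of the others genes of checkpoint signalling, repair and chromatin. The checkpoint and break response group had 11, with the kinases ATM, ATR and CHEK1, the ATR partner ATRIP, RAD9A and HUS1 of the checkpoint clamp, MRE11A and NBN of the complex that senses breaks, BRCA1 with BARD1, and the cell cycle kinase CDK1. Of these 11, 10 were named by regulation of signal transduction by p53 class mediator, and CDK1 was the exception. A further 8 were helicases, among them BLM, WRN, RECQL5, PIF1 and HELB, and the RNA helicases DHX9 and UPF1, which act in RNA processing and in nonsense-mediated decay. All 8 were named by ATP binding and 7 by DNA repair, with DHX9 as the exception. The nucleases ERCC4, SLX4 and TREX1, the end-joining ligase LIG4, the translesion polymerases POLH and POLI, and PAPD7 formed a group of 7. Chromatin regulators gave another 7, the acetyltransferases KAT5 and KAT7, ING4 and ING5 of KAT7 complexes, SIN3A, SUPT16H and GRWD1. The nuclear factor I genes NFIA, NFIB, NFIC and NFIX, transcription factors first known from adenovirus replication, were all members. The other 10 were CCDC88A, RBBP6, PTMS, SDE2, FAM111A, TNFSF13B, REPIN1, E4F1, KCTD13 and TNFAIP1.

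Several entries could not be read as the gene they name. The 5 clone-named symbols carried the identifier of another gene, which was LIG1, RECQL4, CCDC88A and ERCC4 for 4 of them, each a member itself, and RNASEH1 for the fifth. The clone-named partner of LIG1 was named by the same 13 other terms as LIG1. TNFSF13B, a cytokine of the tumour necrosis factor family, was named by 16 other terms, among them ubiquitin-protein transferase activity, centrosome, response to UV and positive regulation of G2/M transition of mitotic cell cycle. RefSeq gives DTL, the symbol of a separate gene for a ubiquitin ligase subunit that acts in S phase, as an older symbol of TNFSF13B, and DTL was not listed. PAPD7, a poly(A) polymerase now called TENT4A, was named by error-prone translesion synthesis and damaged DNA binding. RefSeq gives POLK, the symbol of a translesion polymerase, as an older symbol of PAPD7, and POLK was named by 2 terms, none shared with the 19 of PAPD7. For 6 other members an older symbol was also the symbol of another gene, such as RAD1 for ERCC4 and MCM2 for MCM7. MCM7 was nevertheless named by MCM complex and ERCC4 by nucleotide-excision repair, terms that match their own names. A shared older symbol alone does not make an entry doubtful, and its share over all genes was not taken. Which gene carried the peak was not tested. Without the clone-named symbols, TNFSF13B and PAPD7, 96 members remained.

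Overlapping loci set a further limit. Of the 98 members with a RefSeq locus of their own, 46 overlapped another protein-coding or long noncoding gene by at least 1 base, and 12 overlapped a gene that was itself listed. The share of all genes with such an overlap was not taken, so these counts are not read as a trait of the members. KAT5 and RNASEH2C overlapped each other, as did ATRIP and TREX1, and MCM9 overlapped ASF1A and MCM7 overlapped AP4M1. PCNA and CLSPN each overlapped an antisense gene that was not listed. The library kit keeps strand per the labels' protocols, but no source used here says whether peaks were assigned by strand, so for these pairs the gene with the peak cannot be told apart. The MCM7 locus also holds the microRNA genes MIR106B and MIR25, and neither was listed.

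Every member was named by at least 1 listed term other than DNA replication. The number of such terms ran from 1 to 32 per member, with a median of 11, against a median of 4 for the 5511 other symbols. BLM had the most with 32, followed by RPA2 with 30 and by WRN, DHX9 and CDK1 with 29 each. RRM2, RNASEH2C, PTMS and NFIX had 1 each. The checkpoint group had a median of 21 and the nuclear factor I genes one of 3. Such counts follow how fully a gene is annotated as well as which terms were listed, and they carry no level of binding.

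**Figure D3:**
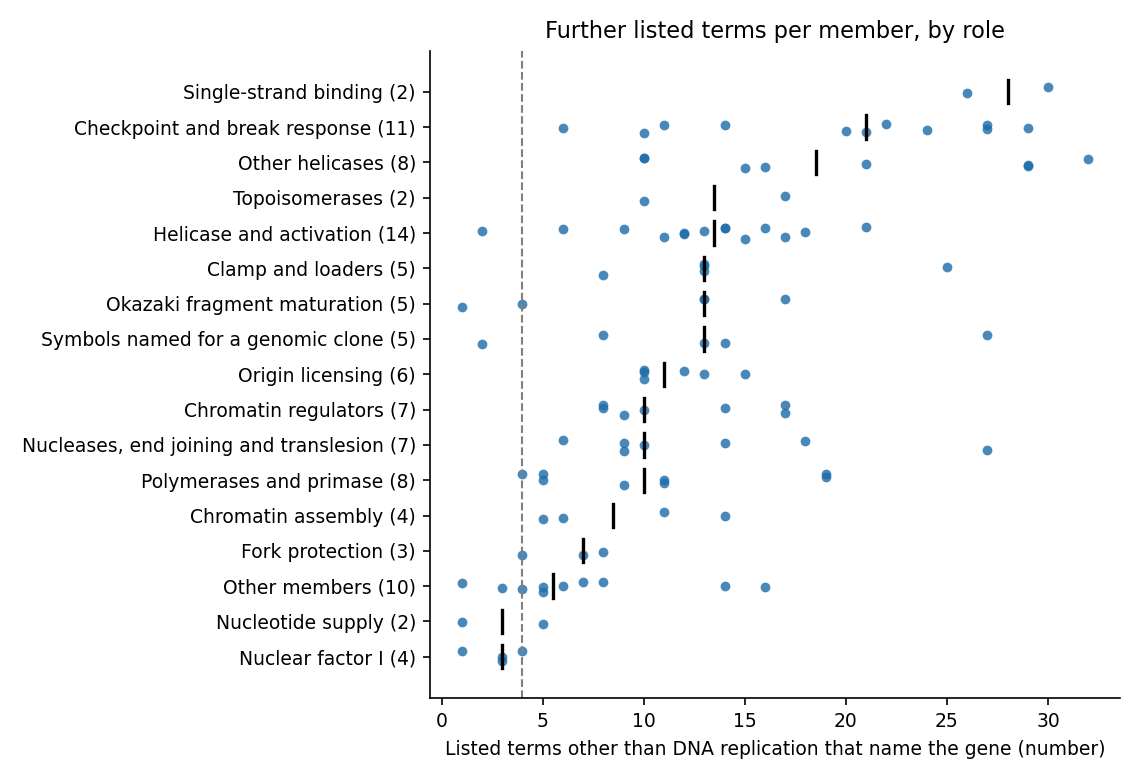
Number of listed terms other than DNA replication that name each of the 103 members (horizontal axis), by role, with the number of members in brackets, a black bar at each role's median and a dashed line at 4, the median of the other symbols. Single-strand binding, checkpoint and other helicase members lie highest, and nucleotide supply and nuclear factor I lowest.

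The terms that held the most members placed them in the nucleus and in genome maintenance. Nucleoplasm named 85 members (82.5%, 95% interval 73.8 to 89.3%), where it named 34.5% of all symbols of the GO and KEGG tables. Nucleus named 81 (78.6%, against 41.3% of all symbols). DNA repair named 42 (40.8%, against 2.76%), and cellular response to DNA damage stimulus named 23 (22.3%, against 2.6%). Members thus made up 27.1% of the symbols listed under DNA repair. Nuclear chromosome, telomeric region named 27 (26.2%, against 1.3%), the p53 mediator term 26 (25.2%, against 1.43%) and G1/S transition 24 (23.3%, against 1.02%).

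ATP binding and DNA binding named 35 members each (34%), against 14.6% and 10.1% of all symbols. Nucleolus named 23 members (22.3%, against 8.67%). Cytosol named 36 (35.0%, 95% interval 25.8 to 45.0%, against 43.9%) and cytoplasm 33 (32.0%, interval 23.2 to 42.0%, against 35.3%), and both intervals include the share of all symbols. The terms annotate the same genes that define the pathway, so these shares describe the members and were not tested. RNA binding named 15 members (14.6%, interval 8.39 to 22.9%), the same share as among all symbols (14.6%), with DHX9, UPF1, DNA2 and RNASEH2A among them.

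**Figure D4:**
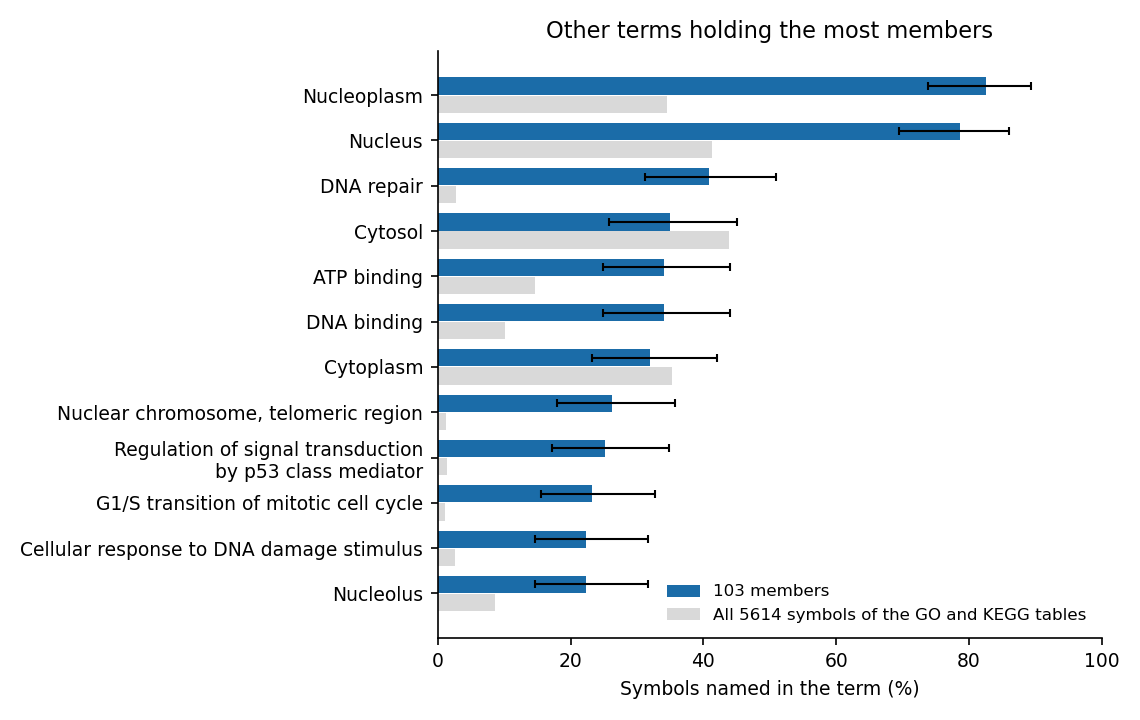
Share in percent of the 103 members (blue, with exact 95% intervals) and of all 5614 symbols of the GO and KEGG tables (grey) named by each of the 12 other terms that held the most members. Nucleoplasm stands at 82.5% against 34.5%, and cytosol at 35.0% against 43.9%.

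The tables listed 6 further terms with replication in their names, and these show the fork and origin genes around the members. DNA replication origin binding was given 21 entries on 23 background genes by the authors' deposited table (corrected p-value 0.375), and 19 of them were members, the others being DDX11 and HSPD1. DNA replication initiation was given 22 entries on 30 background genes by the authors' deposited table (corrected p-value 0.817), 19 of them members, besides CCNE2, CDC34 and LRWD1. DNA unwinding involved in DNA replication was given 13 entries on 16 background genes by the authors' deposited table (corrected p-value 1), and 10 of them were members. Replication fork was given 20 entries on 26 background genes by the authors' deposited table (corrected p-value 0.797), of which 8 were members, while XRCC2 and XRCC3, which act in homologous recombination, and the maintenance methyltransferase DNMT1 were among those that were not. Replication fork processing was given 25 entries on 29 background genes by the authors' deposited table (corrected p-value 0.328), with 3 members, and fork remodellers such as SMARCAL1, ZRANB3 and RTEL1 besides. Nuclear replication fork was given 12 entries on 12 background genes by the authors' deposited table (corrected p-value 0.797), with 2 members. Entries can share a gene identifier, so they are not a count of background genes listed. Distinct identifiers were 11 for nuclear replication fork, 23 for replication fork processing and 12 for DNA unwinding involved in DNA replication.

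The family table sets gene symbols beside RNA-binding protein families and was not used to choose the members. It held 15 of the 103 members (14.6%, 95% interval 8.39 to 22.9%), where it held 19.8% of all symbols of the GO and KEGG tables, a share inside that interval. Of the 15, 11 were paired with all 4 families of the table, as were 838 of its 1348 symbols. The count of 11 is therefore not read as a trait of the members. By role, it held 3 of the 51 members on the role lists (5.88%, interval 1.23 to 16.2%), namely MCM6, CHTF18 and TOP3A, and 12 of the 52 others (23.1%, interval 12.5 to 36.8%). The 12 were ATM, ATRIP, CHEK1, HUS1, RAD9A, IGHMBP2, RECQL5, SLX4, PAPD7, GRWD1, NFIA and NFIC. The intervals of both sets overlap, and the difference was not tested. Of the 27 KEGG members, MCM6 alone was in the table (3.7%, interval 0.0937 to 19.0%). The intervals of the role-list members and of the KEGG members lie below the 19.8% of all symbols, and these differences were not tested. Beside the members, the table held 18 of the 113 DNA repair symbols that were not members (15.9%, interval 9.72 to 24.0%). It held 7 of 58 such Cell cycle symbols (12.1%, interval 4.99 to 23.3%). MCM6, a helicase subunit, was paired with the CSD, PUF and RRM families. In the whole table these were paired with 1342, 1183 and 1348 symbols, so the pairing is not particular to MCM6. Such a pairing does not make the gene itself a member of the family.

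E2F-type letters were searched in the promoter windows, since replication genes are a classical group of E2F targets. The search covered the motif TTCGCGC, the motif TTGGCGC, the motif TTCCCGC and the motif TTGCCGC on both strands without mismatch, in the first RefSeq start listed per gene. Matches to TTCGCGC can overlap on opposite strands with each other or with the motif TTGGCGC, as in the windows of MCM2 and MCM6 shown above. A window was found for 85 members, and 35 of them held a match (41.2%, 95% interval 30.6 to 52.4%), where 17.1% of 15842 protein-coding promoters did. Of 4254 other genes of the GO and KEGG tables, a match was held by 21.5% (interval 20.3 to 22.8%). The following counts split the 35 member promoters with a match. Most of the 35 belonged to role-list members, of whose 44 windows 28 held a match (63.6%, interval 47.8 to 77.6%). Outside those lists, 7 of 41 members held a match (17.1%, interval 7.15 to 32.1%). Role-list genes that were not listed held a match in 9 of 22 cases (40.9%, interval 20.7 to 63.6%), an interval that overlaps that of the role-list members.

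By role, 6 of 10 helicase promoters held a match (MCM2, MCM3, MCM6, MCM7, MCM8 and TOPBP1), as did 4 of 6 licensing promoters (CDC6, CDT1, ORC1 and ORC3), 5 of 7 polymerase and primase promoters and 4 of 5 clamp promoters (PCNA, RFC2, RFC3 and RFC4). None of the 7 chromatin regulator promoters and none of the 9 promoters in the group of other members did. In the helicase role, MCM4, MCM5, RECQL4 and DONSON had no window and were not searched. PCNA had 1 match, beginning 59 bases before the start, and CDC6 had 1 that began at base 9 of the transcribed part. A match is a description of the letters in a window, the promoter sequence is not a measurement of these libraries, and a window without one says nothing about the factor.

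**Figure D5:**
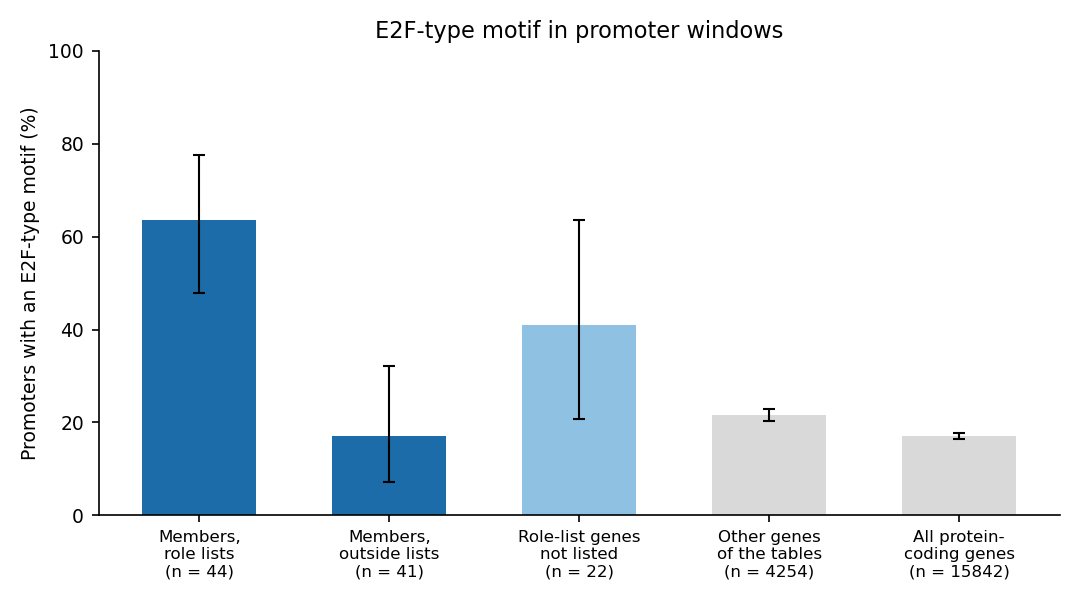
Share in percent of promoter windows with an E2F-type motif, with exact 95% intervals, for members on the role lists, members outside them, role-list genes that were not listed, other genes of the tables and all protein-coding genes. Role-list members stand at 63.6% and members outside the lists at 17.1%, with all protein-coding genes also at 17.1%.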

How the data were processed

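RNA immunoprecipitated with ALKBH5 and input RNA of HL-60 cells were sequenced in 1 library each. The libraries were stranded and read in pairs per the labels' protocols. Library names, not titles, set the groups. Per the submitters' processing notes reads were placed on hg38. Aligner, peak caller, thresholds and the role of the IgG control are not given in the sources used here. Per the file headers, the authors deposited the number of input entries and background genes of each GO and KEGG term, a rich factor (a ratio) and p-values. The deposited unadjusted p-values were all at most 0.0497. A further deposited table pairs symbols with families and holds no number. Library depth is unknown, and intervals cover counting error only.

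Symbols were read from the entries of the GO and KEGG tables, and loci and promoters from RefSeq (GRCh38.p14) by gene identifier. Of the 103 members, 98 had a locus and 85 a promoter window. The role lists were matched by symbol and then by older symbols. Exact Clopper-Pearson 95% intervals came from scipy 1.17.1 in Python 3.11.15, with pandas 2.3.3. The motif search was tested on simulated sequences. No test between groups or gene sets was made. Named genes were all members of the role lists, listed or not, with the further members by role and the 12 other terms that held the most members. The members and lists were chosen with earlier results of these data known. Alternatives were another unit of counting, either term alone, other rules of listing and matching, and another window or motif set. Protein sequences were not used here, and some genes of the lists are not reported here.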

Additional observations from a re-analysis of the deposited data

How the results depend on the processing

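No paired analysis was possible because each group has 1 library and the tables hold no value per library; for the same reason no replicate could be left out. The listed shares of the role lists and of the KEGG genes stayed within their intervals under all 8 alternatives, from 70.7 to 71.7% and from 69.4 to 72.2%. Of the 43 alternatives in all, 32 stayed within the interval or within 1.5 times the main count. The number of members was 99 by identifier, 95 from the GO term alone and 96 without clone-named symbols, TNFSF13B and PAPD7, but 27 from the KEGG term alone. With the KEGG term alone, the share in the family table was 3.7%, and the shares in other terms were 92.6% for nucleoplasm, 22.2% for cytosol and for cytoplasm, 51.9% for DNA binding and for G1/S transition, 44.4% for the telomeric region and 7.41% for cellular response to DNA damage stimulus. By construction this setting leaves 27 of the 103 symbols, so its intervals are wide. They include the main share for the family table and for each of these terms except G1/S transition (interval 31.9 to 71.3%, main share 23.3%). The family table share was 5.88% among role-list members. With the motif TTCGCGC and the motif TTGGCGC alone, 23.5% of member promoters matched, where 7% of all protein-coding promoters did, and with any start per gene 48.2% did, against 20.5%. The settings without clone-named symbols, by identifier for the listed shares, by terms without replication in their names, by role-list members and with any start were chosen after seeing the data. Genes were seen only through the terms in the authors' tables, so for a gene outside these terms a peak cannot be told apart from none. The KEGG pathway DNA replication is itself listed, and by identifier 10 of its 36 genes were not among its entries. These 10 were thus absent from the authors' entries, at peak thresholds that are not given.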
